A study of Mus musculus with 2 samples.

Results

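The 36 genes described here act in the G2 and M phases of the cell cycle, and are the rows of both count matrices whose symbol is on a given list of 36 names, out of 32285 genes measured. All 36 were found in both matrices. The rule goes by name and uses no values. It holds cyclins, Cdk1 and its small partners, mitotic kinases, subunits of the kinetochore and of the spindle, proteins of cytokinesis and proteins of condensed chromosomes.

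A cell that has copied its DNA passes through G2, where cyclin A and cyclin B bind Cdk1, and enters mitosis once that kinase is active. Kinetochores then attach chromosomes to the spindle, the spindle checkpoint holds back the anaphase-promoting complex until all are attached, and that complex with Cdc20 and the conjugating enzyme Ube2c marks cyclin B for destruction. In the embryonic forebrain these genes are read in radial glia, in intermediate progenitors of the cortex that carry Eomes, and in progenitors of the ganglionic eminences that carry Dlx1 and Dlx2 and make GABAergic neurons.

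Single cells of whole mouse forebrain at embryonic day 18.5 were counted in 2 droplet libraries, 1 labelled Cyfip2 knockout and 1 labelled wild type. Each was a pool of 2 forebrains, dissociated with papain. Cyfip2 encodes a subunit of the WAVE complex, which drives branched actin assembly. The sources used here do not say which part of the gene was deleted.

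The knockout-labelled library (KO) held 150828048 UMIs (counted RNA molecules) and 11533 cells were kept, against 123978461 UMIs and 8426 cells in the wild-type library (WT). The median depth was 7787 UMIs per cell in the knockout-labelled and 9567 in the wild-type library. The libraries shared 32 cell barcodes, where 17.2 would be shared by chance. Cyfip2 did not check the label: it stood at 84.4 CPM (UMI counts scaled to a common total per sum of cells) in the knockout-labelled and 84.9 CPM in the wild-type library over all cells. In the dividing cells of the cortex defined below it was at 64.9 CPM in the knockout-labelled and 33.4 CPM in the wild-type library, and in those of the eminences at 68.2 (KO) and 27.7 (WT) CPM. Each genotype has 1 library, so no difference between the labels was tested. Intervals below are at 95% and count sampling of UMIs alone, not the spread between animals.

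A cell was called dividing when it carried a UMI of at least 8 genes of a second list of 63 mitotic genes, which holds none of the 36. This gave 951 dividing cells (8.25% of cells) in the knockout-labelled and 750 (8.90%) in the wild-type library. Of these, 267 knockout-labelled and 316 wild-type cells were cortical, with at least 2 UMIs of Eomes, Neurog2 and Pax6 together and at least 3 times the UMIs of Dlx1, Dlx2 and Dlx6os1, and 562 knockout-labelled and 328 wild-type cells were of the eminences by the reverse rule. Markers that the rule did not use followed it in sum, but not each of them. Those of the cortex summed to 1023 (KO) and 1170.5 (WT) CPM in cortical and 174 (KO) and 194 (WT) CPM in eminence dividing cells. Those of the eminences summed to 276 (KO) and 245 (WT) CPM in cortical and 1849 (KO) and 1902 (WT) CPM in eminence cells. Among the latter, Olig2 did not follow, at 56.9 (KO) and 36.6 (WT) CPM in cortical and 53.9 (KO) and 60.9 (WT) CPM in eminence cells. Emx1, a factor of the dorsal telencephalon, was at 75.0 CPM in knockout-labelled and 87.2 CPM in wild-type cortical dividing cells, and at 2.36 (KO) and 1.53 (WT) CPM in the eminence cells. Sp9, a factor of the eminences, was at 2.06 (KO) and 2.68 (WT) CPM in the cortical cells and at 362 (KO) and 363 (WT) CPM in the eminence cells. Pax6 was not particular to the cortical cells, since the eminence cells held 61.4 (KO) and 68.0 (WT) CPM of it. The cortical dividing cells had medians of 17925 UMIs in the knockout-labelled and 19455 in the wild-type library, and the eminence cells 12244 (KO) and 15316 (WT).

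The promoters of these genes share short motifs that the choice of members did not use. Of the 36 genes, 31 had an entry among the RefSeq promoters of build GRCm38.p6, which run from 250 bases before to 50 bases after the start of the gene. The box CCAAT, bound by NF-Y, was searched on both strands, and so was the element TTTGAA or TTCGAA, known as CHR and bound by the DREAM and MuvB complexes of cell cycle genes. The 250 bases before the start are printed for 4 of them, in the direction of the gene. Ube2c and Cdc20 stood closest to mitosis with both lineages pooled, and Ccnb2 and Top2a differed between cortex and eminence under every setting tried. Capitals mark CCAAT and its reverse complement ATTGG, and TTTGAA or TTCGAA and the reverse complement TTCAAA. Matches on opposite strands that overlap, as in CCAATTGG of Ube2c, count separately. They come from chr2:164769679-164769928 on the plus strand (Ube2c), and from chr4:118437344-118437593 (Cdc20), chr9:70421555-70421804 (Ccnb2) and chr11:99024190-99024439 (Top2a) on the minus strand.
Ube2c: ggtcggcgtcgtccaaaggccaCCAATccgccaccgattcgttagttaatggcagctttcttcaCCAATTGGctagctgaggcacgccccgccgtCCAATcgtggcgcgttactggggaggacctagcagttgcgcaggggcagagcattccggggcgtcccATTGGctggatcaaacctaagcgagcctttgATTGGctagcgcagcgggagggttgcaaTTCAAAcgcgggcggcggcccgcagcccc
Cdc20: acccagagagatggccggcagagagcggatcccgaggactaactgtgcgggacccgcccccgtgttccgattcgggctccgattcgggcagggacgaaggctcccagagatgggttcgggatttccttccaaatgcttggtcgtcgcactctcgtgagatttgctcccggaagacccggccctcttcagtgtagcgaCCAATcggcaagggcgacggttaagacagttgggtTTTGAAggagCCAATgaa
Ccnb2: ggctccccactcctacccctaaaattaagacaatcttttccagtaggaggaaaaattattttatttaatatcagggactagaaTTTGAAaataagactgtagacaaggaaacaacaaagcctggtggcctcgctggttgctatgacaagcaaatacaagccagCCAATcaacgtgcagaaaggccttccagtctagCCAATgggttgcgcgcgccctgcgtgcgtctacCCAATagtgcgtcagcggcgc
Top2a: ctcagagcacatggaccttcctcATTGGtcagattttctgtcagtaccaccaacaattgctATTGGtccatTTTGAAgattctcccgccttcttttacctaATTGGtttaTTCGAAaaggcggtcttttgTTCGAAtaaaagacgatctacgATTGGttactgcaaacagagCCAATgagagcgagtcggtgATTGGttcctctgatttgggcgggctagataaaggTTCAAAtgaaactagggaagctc

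The printed stretches hold 6 CCAAT boxes and 1 CHR element in Ube2c, 2 and 1 in Cdc20, 3 and 1 in Ccnb2, and 6 and 4 in Top2a. Over the whole windows, CCAAT was present in 25 of the 31 promoters (80.65%), against 37.9% of the 27025 promoters of the table. TTTGAA or TTCGAA was present in 24 of 31 (77.4%), against 19.4% of all promoters. Both were present in 22 of 31 (71.0%), against 7.70% of all. At least 2 CCAAT boxes stood in 20 of the 31 windows and in 12.2% of all windows. The windows of Nuf2, Nusap1, Tacc3 and Birc5 held neither motif. These are matches of letters and were not tested as binding sites.

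The 36 genes were read mostly in dividing cells. Of all their UMIs, 89.9% in the knockout-labelled and 90.2% in the wild-type library lay in dividing cells. Together they made up 1.72% of the UMIs of cortical dividing cells in the knockout-labelled and 1.63% in the wild-type library, and 1.76% (KO) and 1.71% (WT) in the eminence dividing cells, against 0.234% (KO) and 0.238% (WT) over all kept cells. In non-dividing cells with excitatory neuron markers their summed level was 201 CPM in the knockout-labelled and 198 CPM in the wild-type library. Barcodes of under 100 UMIs, which hold mostly free RNA, carried 2026 (KO) and 1879 (WT) CPM of these genes.

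**Figure D1:**
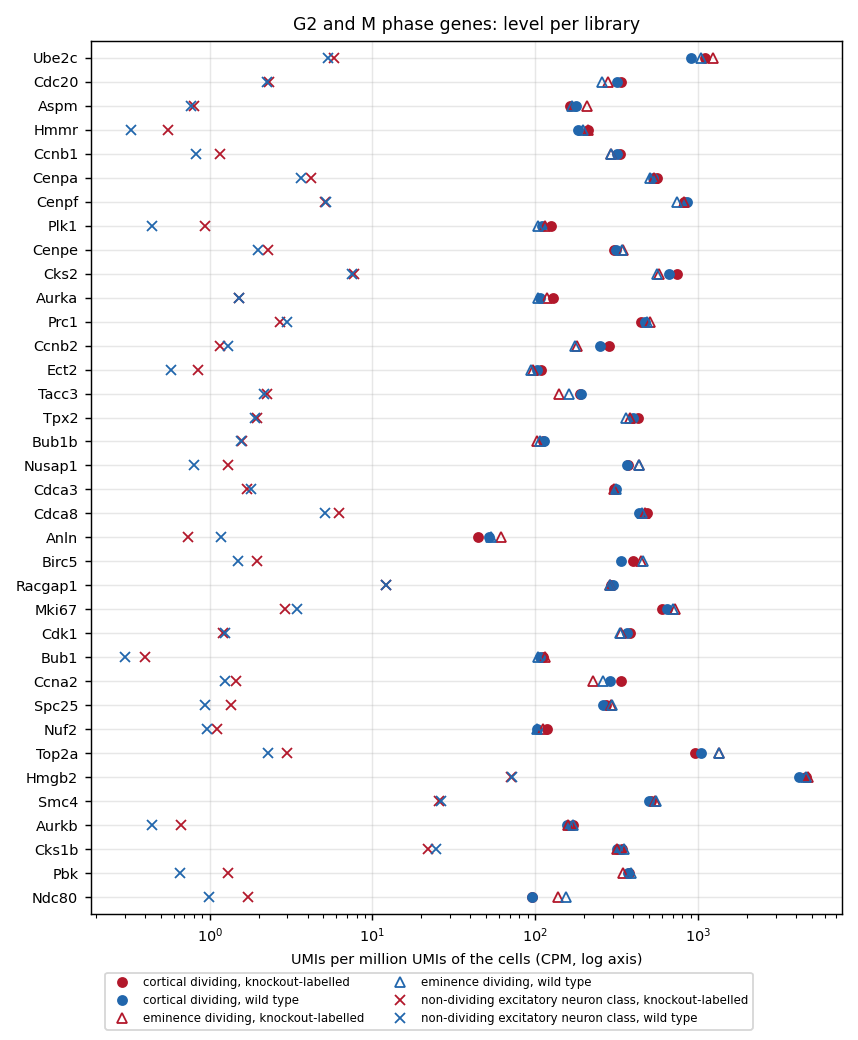
Level of each of the 36 genes in CPM (UMI counts scaled to a common total, log axis), in cortical dividing cells (circles), eminence dividing cells (triangles) and non-dividing cells of the excitatory neuron class (crosses), with the knockout-labelled library in red and the wild-type library in blue. The genes run from the most mitosis-leaning at the top to the least at the bottom; with both lineages pooled, every gene is higher in dividing cells than in the neuron class by 13.5-fold or more.

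The gap between dividing cells and neurons was narrowest for Cks1b, Smc4 and Racgap1 in both libraries, and among the widest for Top2a and Hmmr. Top2a, the topoisomerase that untangles sister chromatids, was 402-fold higher in dividing cells of both lineages than in the neuron class in the knockout-labelled library (interval 339 to 480.4) and 515-fold in the wild-type library (415 to 648). Hmmr, a microtubule-binding spindle protein, was 381-fold (KO) and 574-fold (WT) higher, and Pbk, a mitotic kinase, 279-fold (KO) and 571-fold (WT). Cks1b, a small Cdk-binding protein, was 14.9-fold (KO) and 13.5-fold (WT) higher, with 22.0 CPM in knockout-labelled and 24.6 CPM in wild-type neurons. Smc4, the core subunit of condensin, was 20.8-fold (KO) and 20.0-fold (WT) higher, and Racgap1, a subunit of centralspindlin in cytokinesis, 24.0-fold (KO) and 24.2-fold (WT). The cut on dividing cells uses genes of the same process, so these folds describe the members and were not tested.

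Levels in CPM were not divided by transcript length, so they compare cells and not genes. Hmgb2, a chromatin protein of dividing and progenitor cells, had the most UMIs. It was at 4605 CPM in knockout-labelled and 4199 CPM in wild-type cortical dividing cells, and at 4760 (KO) and 4639 (WT) CPM in the eminence cells. Non-dividing cells of the radial glia class still held 320.4 (KO) and 334 (WT) CPM of it. Ube2c was at 1101 (KO) and 909 (WT) CPM in the cortical and at 1240 (KO) and 1040 (WT) CPM in the eminence cells, higher in the knockout-labelled library in both. Cenpf, a protein of the outer kinetochore, was at 818 (KO) and 860 (WT) CPM in the cortical and at 821 (KO) and 746 (WT) CPM in the eminence cells. Cenpa, the histone variant of centromeres, was at 557 (KO) and 527 (WT) CPM in the cortical and at 538 (KO) and 505 (WT) CPM in the eminence cells. Its 4 values lie within a narrow range.

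Smc4 was at 513 (KO) and 501 (WT) CPM in the cortical cells and at 547 (KO) and 555 (WT) CPM in the eminence cells. Prc1, which bundles microtubules of the central spindle, was at 444 (KO) and 473 (WT) CPM in the cortical and at 511 (KO) and 484 (WT) CPM in the eminence cells. Cdca8, the borealin subunit of the chromosomal passenger complex, was at 485 (KO) and 433 (WT) CPM in the cortical and at 470.1 (KO) and 455 (WT) CPM in the eminence cells. None of these 3 passed the test between cortex and eminence given below. The remaining members ran from 44.5 CPM (Anln in knockout-labelled cortical cells) upward. How reads that match near-identical gene copies were counted is not given in the sources used here.

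The members differed widely in how close they stood to mitosis. Each dividing cell was called mitosis-leaning if it held more UMIs of the second list of mitotic genes than of a list of 47 S phase genes, and S-leaning otherwise. Cells with 40 to 60% of these UMIs from the mitotic list, near the cut, were 48 of 267 knockout-labelled and 71 of 316 wild-type cortical cells, and 124 of 562 knockout-labelled and 72 of 328 wild-type eminence cells. All 36 members were higher in mitosis-leaning cells in edgeR's quasi-likelihood test over both libraries, where 46% of all genes passed, 22.8% higher and 23.1% lower. Since the cut uses genes of the same process, only the order of the members is described here.

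**Figure D2:**
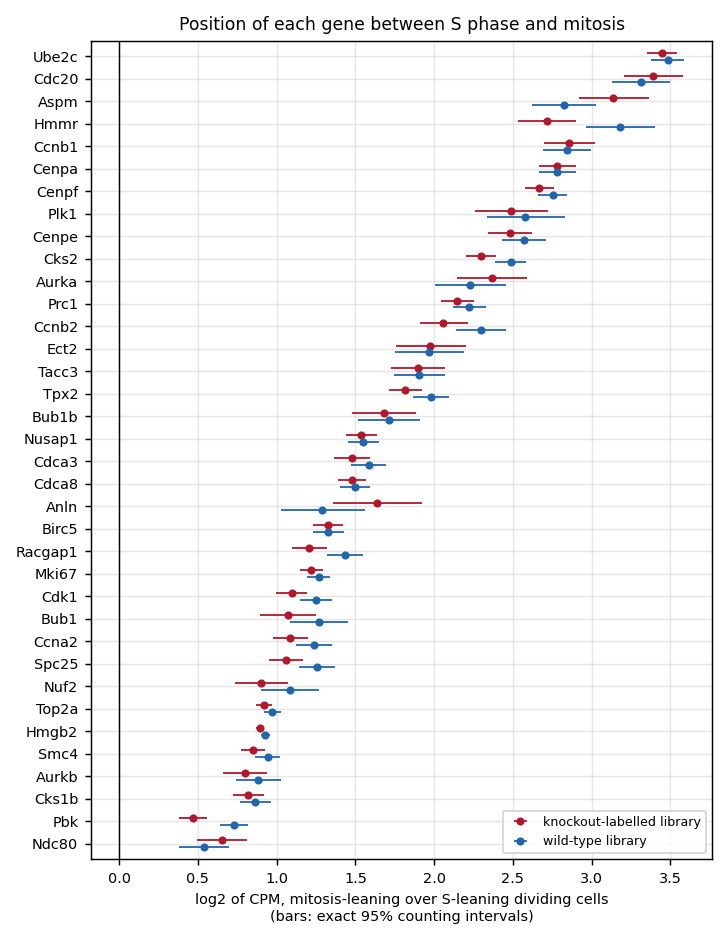
Log2 ratio of CPM in mitosis-leaning over S-leaning dividing cells for each of the 36 genes, with the knockout-labelled library in red, the wild-type library in blue and exact 95% counting intervals as bars. The ratios run from 0.47 (Pbk, knockout-labelled) to 3.48 (Ube2c, wild type), and Ube2c and Cdc20 are at the top in both libraries.

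With both lineages pooled, Ube2c and Cdc20, which act with the anaphase-promoting complex, stood at the mitotic end. Ube2c was at 1967 CPM in mitosis-leaning cells of the knockout-labelled and 1678 CPM of the wild-type library, against 180.3 (KO) and 150.2 (WT) CPM in S-leaning cells, a log2 ratio of 3.47. Cdc20, the activator of the complex, followed at 3.35, with 499.9 (KO) and 500.04 (WT) CPM in mitosis-leaning against 47.7 (KO) and 50.4 (WT) CPM in S-leaning cells. Next came the spindle proteins Aspm (2.98) and Hmmr (2.93) and the mitotic cyclin Ccnb1 (2.85). Cenpa, Cenpf, Plk1 and Cenpe lay between 2.53 and 2.78. Cdca3, a trigger of mitotic entry, stood in the middle of the members at 1.53.

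At the other end stood Ndc80 and Pbk, both at 0.60. Ndc80, the subunit of the outer kinetochore that grips microtubules, was at 144 (KO) and 143 (WT) CPM in mitosis-leaning cells and at 92.0 (KO) and 98.5 (WT) CPM in S-leaning cells. Cks1b and Aurkb (0.84 each), Smc4 (0.90), Hmgb2 (0.92) and Top2a (0.95) followed. Aurkb, the kinase of the passenger complex, thus lay far from Aurka (2.30), the kinase of the spindle poles. The kinetochore subunits spread over the whole range, with Nuf2 at 0.99 and Spc25 at 1.16 near Ndc80, and Cenpa, Cenpe and Cenpf near the mitotic end. Within the cortical cells Ndc80 (0.53) and within the eminence cells Pbk (0.47) was the lowest. The highest within the cortical cells was Cdc20 (3.36), ahead of Ccnb1 (3.14) and Ube2c (3.12), and within the eminence cells Ube2c (3.80).

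Between cortical and eminence dividing cells as cut above, the members as a group did not stand apart from other genes. Under some other cuts they did, in directions that changed with the cut. A few of the members differed steadily. In edgeR's test on the sums of both libraries, with the library as a block, 15 of 36 members passed an adjusted p of 0.05, 5 higher and 10 lower in the cortical cells. Of all 7224 genes tested 44.3% passed, 21.8% higher and 22.5% lower, so the share of members that passed is near that of all genes. The median log2 ratio was -0.07 over the members and -0.01 over all genes. The fit has 4 sums and 1 residual degree of freedom, from 2 libraries that also carry different labels, and its estimate of spread draws on all genes. The SE was 0.084 for Aspm, with ratios of -0.34 (KO) and 0.09 (WT), and 0.083 for Nusap1, with -0.24 in both libraries. A small adjusted p therefore does not show that a gene's ratios were alike in the 2 libraries. With a stricter lineage rule, at least 4 UMIs of the own and none of the other markers, the counts were 18 higher and 2 lower. Of all genes 34.3% passed under that rule, and 52.1% of these were higher. So the direction of the group depends on how lineages are cut. That rule by its construction leaves out eminence cells with any Pax6 UMI. Under it the log2 ratios of Ube2c (0.19), Cenpe (0.11), Spc25 (0.0096), Nusap1 (0.032), Aspm (0.21) and Mki67 (0.0058) lay above 0, and Birc5 (-0.05) no longer passed. Ccnb2, Ndc80 and Top2a passed in the same direction under all 15 other settings, not counting the split into mitosis-leaning and S-leaning cells given below.

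**Figure D3:**
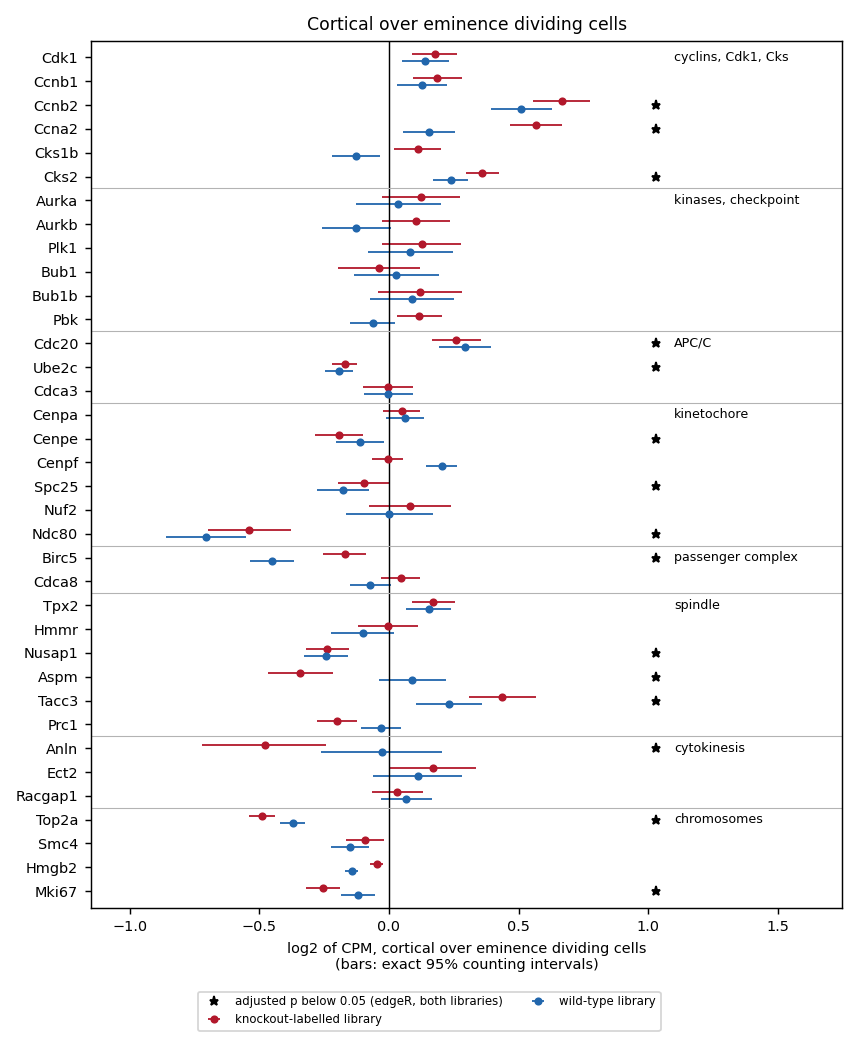
Log2 ratio of CPM in cortical over eminence dividing cells for each gene, grouped by role, in the knockout-labelled (red) and wild-type (blue) libraries, with exact 95% counting intervals; stars mark an adjusted p below 0.05 in edgeR's test over both libraries. Ccnb2 lies farthest to the right, at 0.67 (KO) and 0.51 (WT), and Ndc80 far to the left in both libraries, at -0.54 (KO) and -0.71 (WT).

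Of the 6 cyclins, Cdk1 and Cdk partners, 3 were higher and 0 lower in the cortical cells, with a median log2 ratio of 0.16. Of all genes 44.3% passed, 21.8% higher and 22.5% lower. The count of 3 is near the share that passed in either direction and above the share that was higher. The direction of so few genes was not tested. Ccnb2, a B-type cyclin that binds Cdk1, was at 286 CPM in knockout-labelled and 250.2 CPM in wild-type cortical cells, against 180.3 (KO) and 176 (WT) CPM in eminence cells. Both cortical values lie above both eminence values. The share of all genes whose groups do not overlap is not given here, so non-overlap here and below only describes the values. The log2 ratio was 0.52 (SE 0.08, adjusted p = 7.27e-09, edgeR). After thinning every cell to 1000 UMIs, a Ccnb2 UMI was seen in 25.8% (KO) and 20.9% (WT) of the cortical cells and in 15.8% (KO) and 14.9% (WT) of the eminence cells, against 0.194% (KO) and 0.135% (WT) of non-dividing excitatory neurons, whose median depths were 7388 (KO) and 8437 (WT) UMIs. Without thinning these shares were 79.0% (KO) and 74.4% (WT) of the cortical cells, 55.2% (KO) and 58.8% (WT) of the eminence cells, and 0.951% (KO) and 1.24% (WT) of the neurons.

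Ccna2, the cyclin of S phase and G2, was at 336 (KO) and 289 (WT) CPM in the cortical and 227 (KO) and 259.8 (WT) CPM in the eminence cells (log2 ratio 0.29, adjusted p = 0.00156, edgeR). The groups did not overlap, but the ratio was 0.57 in the knockout-labelled and 0.15 in the wild-type library. Cks2, the other small Cdk-binding protein, was at 743 (KO) and 664 (WT) CPM in cortical against 578 (KO) and 563 (WT) CPM in eminence cells (0.23, adjusted p = 0.0241, edgeR). Cdk1 (0.09), Ccnb1 (0.09) and Cks1b (-0.08) did not pass. For Cks1b the ratio was 0.11 in the knockout-labelled and -0.13 in the wild-type library, with counting intervals on opposite sides of 0.

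None of the 6 kinases and checkpoint proteins passed the edgeR test, where 44.3% of all genes did. Aurka (0.01), Aurkb (-0.08), Plk1 (0.04), Bub1 (-0.07), Bub1b (0.04) and Pbk (-0.04) all lay close to 0. Cdc20 was at 335 (KO) and 317 (WT) CPM in the cortical and 279 (KO) and 259 (WT) CPM in the eminence cells (0.21, adjusted p = 0.0267, edgeR). Ube2c went the other way (-0.25, adjusted p = 0.0252, edgeR), but did not pass without the library as a block (adjusted p = 0.077, edgeR) and turned under the stricter lineage rule. Its cortical values, given above, straddle the wild-type eminence value, so these groups overlap. Cdca3 was at -0.07 and did not pass.

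At the kinetochore 3 of 6 members were lower and 0 higher, where 44.3% of all genes passed and 22.5% were lower. Of these 3, only Ndc80 stayed lower under the stricter lineage rule. Ndc80 was at 95.6 (KO) and 95.1 (WT) CPM in cortical cells, against 139 (KO) and 155 (WT) CPM in eminence cells. Both cortical values lie below both eminence values (log2 ratio -0.69, SE 0.09, adjusted p = 1.66e-12, edgeR). It was the 1 member past 1.5-fold in the wild-type library, where 21% of all genes were past it and 6.28% were lower. Ccnb2 was the 1 in the knockout-labelled library, where 19.9% were past it and 12.3% were higher. Spc25, a partner of Ndc80 in its complex, was at 273 (KO) and 260.3 (WT) CPM in cortical against 292 (KO) and 294 (WT) CPM in eminence cells (-0.20, adjusted p = 0.0313, edgeR), and passed in 8 of the 15 other settings. The third measured subunit, Nuf2, was at 118 (KO) and 103 (WT) CPM in cortical against 111 (KO) and 103 (WT) CPM in eminence cells (-0.03), and did not pass. Cenpe, the kinesin that moves chromosomes to the spindle equator, was at 303 (KO) and 314 (WT) CPM in cortical against 347 (KO) and 339.8 (WT) CPM in eminence cells (-0.22, adjusted p = 0.0192, edgeR), and passed in 9 of the 15.

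Birc5, the survivin subunit of the passenger complex, was at 399 (KO) and 336 (WT) CPM in the cortical and 449 (KO) and 459.7 (WT) CPM in the eminence cells (log2 ratio -0.38, adjusted p = 4.66e-05, edgeR). The groups did not overlap, and the ratio was -0.17 in the knockout-labelled and -0.45 in the wild-type library. Its partner Cdca8 did not pass (-0.08). Among spindle proteins, Tacc3, which stabilises microtubule bundles of the spindle, was higher, at 189 (KO) and 190.0 (WT) CPM in cortical against 139.8 (KO) and 162 (WT) CPM in eminence cells (0.27, adjusted p = 0.00551, edgeR). Nusap1, which also binds spindle microtubules, was lower, at 369 (KO) and 367 (WT) CPM in cortical against 435 (KO) and 434 (WT) CPM in eminence cells (-0.31, adjusted p = 0.000939, edgeR), with a ratio that turned to 0.032 under the stricter lineage rule. For both the groups did not overlap.

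Aspm, the spindle pole protein whose loss causes microcephaly, was at 163 (KO) and 179 (WT) CPM in the cortical and 207 (KO) and 168 (WT) CPM in the eminence cells. It passed narrowly (-0.20, adjusted p = 0.048, edgeR), but the groups overlap, the ratio was -0.34 in the knockout-labelled and 0.09 in the wild-type library, and it passed in 2 of the 15 other settings. Without the block its adjusted p was 0.0951 in edgeR. Tpx2, the activator of Aurka at the spindle (0.09), Hmmr (-0.12) and Prc1 (-0.18) did not pass. In cytokinesis, Anln, which links actin and septins in the contractile ring, was at 44.5 (KO) and 52.2 (WT) CPM in cortical against 62.0 (KO) and 53.3 (WT) CPM in eminence cells (-0.32, adjusted p = 0.0138, edgeR). The wild-type values hardly differ, with a ratio of -0.03. Ect2, which activates RhoA at the ring (0.07), and Racgap1 (-0.02) did not pass.

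Of the chromosome proteins 2 of 4 were lower, where 44.3% of all genes passed and 22.5% were lower. Top2a was at 965 (KO) and 1038 (WT) CPM in cortical cells, against 1355 (KO) and 1344 (WT) CPM in eminence cells. Both cortical values lie below both eminence values (log2 ratio -0.50, SE 0.10, adjusted p = 3.97e-06, edgeR). After thinning to 1000 UMIs, a Top2a UMI was seen in 45.3% (KO) and 48.4% (WT) of the cortical and 62.8% (KO) and 65.2% (WT) of the eminence cells, against 0.485% (KO) and 0.243% (WT) of non-dividing excitatory neurons. Mki67, the coat protein of mitotic chromosomes, was at 605 (KO) and 649 (WT) CPM in cortical against 722 (KO) and 704 (WT) CPM in eminence cells (-0.26, adjusted p = 0.013, edgeR), with a ratio of 0.0058 under the stricter lineage rule. Smc4 (-0.19, adjusted p = 0.0621) and Hmgb2 (-0.16, adjusted p = 0.286) did not pass in edgeR.

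The mixture of phases moved with the lineage. Mitosis-leaning cells were 60.3% of the cortical dividing cells in the knockout-labelled and 57.9% in the wild-type library, and 56.9% (KO) and 50.9% (WT) of the eminence cells. Thinned to 5000 UMIs these were 62.8% (KO) and 60.6% (WT) of the cortical and 51.9% (KO) and 48.7% (WT) of the eminence cells. Within mitosis-leaning cells 1 member was higher (Ccnb2, 0.36) and 15 were lower in the cortical cells, where 42.7% of all genes passed, 21.2% higher and 21.5% lower. Within S-leaning cells 1 was higher (Ccnb2, 0.45) and 11 were lower, where 20.6% of all genes passed, 11.6% higher and 8.93% lower. Ndc80 was at -0.82 within mitosis-leaning and -0.59 within S-leaning cells, and Top2a at -0.62 and -0.47. Ube2c was at -0.49 within mitosis-leaning cells (adjusted p = 0.00107, edgeR) and at 0.22 within S-leaning cells, where it did not pass. Ccna2, Cks2, Cdc20 and Tacc3 passed in neither. Of the kinases and checkpoint proteins, Bub1 (-0.25) and Aurkb (-0.21) passed as lower within mitosis-leaning cells and Pbk (-0.29) within S-leaning cells. Aurka, Plk1 and Bub1b passed in neither. This split was chosen after seeing the data. It sets the mitotic list against the S phase list, of which 0 of 46 measured genes were higher and 34 lower in the cortical cells. The cut therefore does not fall at the same phase in both lineages by necessity, and its part in these counts and ratios was not tested.

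Of other genes of the cell cycle, most of the S phase list and of the cycle regulators were lower in the cortical dividing cells, where 21.8% of all genes were higher and 22.5% lower. Of the S phase list, 0 of 46 measured genes were higher and 34 lower, with a median log2 ratio of -0.33. Cdca7, a chromatin factor of S phase, was at 166 (KO) and 165 (WT) CPM in the cortical and 538 (KO) and 543 (WT) CPM in the eminence cells (-1.78). Of 33 measured cycle regulators 1 was higher and 18 lower (median -0.26). The one higher was Cdk6, a kinase of G1, at 292 (KO) and 275 (WT) CPM in the cortical and 168 (KO) and 161 (WT) CPM in the eminence cells (0.72). Ccnd2, a D-type cyclin that activates such kinases, was at 1124 (KO) and 1019 (WT) CPM in the cortical and 3217 (KO) and 3465 (WT) CPM in the eminence cells (-1.71). The lower E2f2 (-1.67), Cdkn1c (-0.95) and E2f7 (-0.84) are a cell cycle activator, a Cdk inhibitor and a repressor of E2F targets. Of the 62 measured genes of the mitotic list, which also chose the cells, 1 was higher and 26 lower (median -0.18). Of 7 measured p53 targets, Aen was higher (0.29) and Btg2 lower (-0.35).

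Within the cortical dividing cells, those that carried Eomes differed from those that did not in most members, in both directions. Eomes marks intermediate progenitors, and cells with a Pax6 UMI and no Eomes UMI include radial glia. There were 162 Eomes-carrying cells in the knockout-labelled and 167 in the wild-type library, and 105 (KO) and 146 (WT) Eomes-free cells. In edgeR's test 9 members were higher and 17 lower in Eomes-carrying cells, where 49.6% of all genes passed, 24.7% higher and 25% lower. Mitosis-leaning cells were 50.0% (KO) and 51.5% (WT) of the Eomes-carrying and 76.2% (KO) and 65.8% (WT) of the Eomes-free cells, so the mixture of phases moved with this contrast too. Within mitosis-leaning cells, 14 members were higher and 2 lower, where 44% of all genes passed, 21.9% higher and 22.1% lower. Within S-leaning cells 9 were higher and 0 lower, where 20% of all genes passed, 8.83% higher and 11.2% lower. The cut sets the mitotic list against the S phase list, of which 40 of 46 measured genes were higher in Eomes-carrying cells. Its part in the counts and ratios within mitosis-leaning and S-leaning cells, here and below, was not tested.

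**Figure D4:**
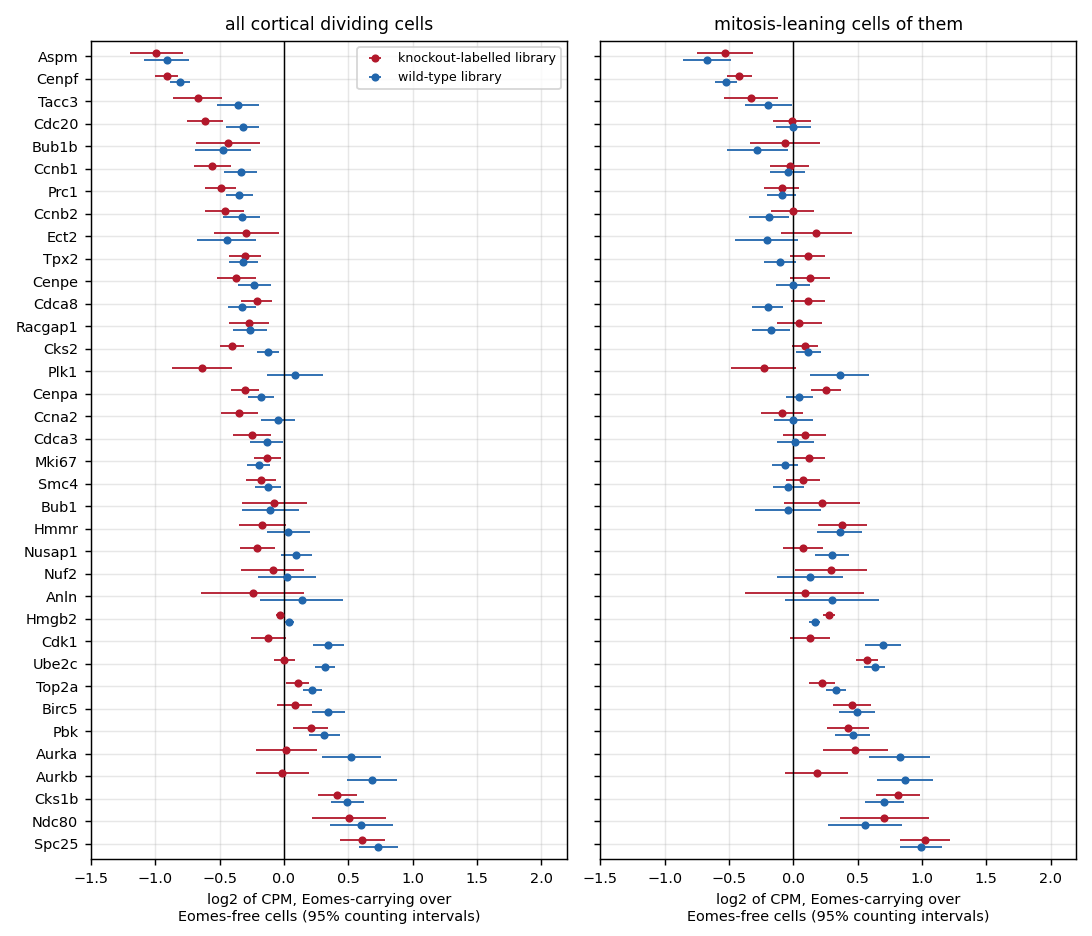
Log2 ratio of CPM in Eomes-carrying over Eomes-free cortical dividing cells for each gene, over all of these cells (left) and over mitosis-leaning cells alone (right), with the knockout-labelled library in red, the wild-type library in blue and exact 95% counting intervals as bars. Aspm and Cenpf lie below 0 and Spc25, Ndc80 and Cks1b above 0 in both panels and both libraries.

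Aspm and Cenpf were the 2 members lower in Eomes-carrying cells both over all and within mitosis-leaning cells. Aspm was at 117 CPM in knockout-labelled and 128 CPM in wild-type Eomes-carrying cells, against 233 (KO) and 241 (WT) CPM in Eomes-free cells. Both values of the Eomes-carrying cells lie below both of the others (log2 ratio -0.92, SE 0.08, adjusted p = 1.58e-10, edgeR). Within mitosis-leaning cells it was at 204 (KO) and 214 (WT) CPM in Eomes-carrying against 295 (KO) and 341 (WT) CPM in Eomes-free cells (-0.55, adjusted p = 1.8e-07, edgeR), and within S-leaning cells at 0.34, which did not pass. Cenpf was at 605 (KO) and 645 (WT) CPM in Eomes-carrying against 1139 (KO) and 1130 (WT) CPM in Eomes-free cells (-0.83), and at -0.41 within mitosis-leaning cells. Tacc3 (-0.47), Cdc20 (-0.43), Bub1b (-0.42) and Ccnb1 (-0.41) were lower over all cortical dividing cells but did not pass within mitosis-leaning cells.

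Spc25, Ndc80 and Cks1b led the members that were higher in Eomes-carrying cells. Spc25 was at 317 (KO) and 323 (WT) CPM in Eomes-carrying and 208 (KO) and 194 (WT) CPM in Eomes-free cells (0.71, SE 0.07, adjusted p = 1.73e-09, edgeR). Within mitosis-leaning cells it was at 453 (KO) and 491 (WT) CPM in Eomes-carrying against 223 (KO) and 246 (WT) CPM in Eomes-free cells (1.07). Ndc80 was at 108 (KO) and 114 (WT) CPM in Eomes-carrying against 76.5 (KO) and 75.4 (WT) CPM in Eomes-free cells (0.59), and Cks1b at 381 (KO) and 373 (WT) CPM in Eomes-carrying against 286 (KO) and 265 (WT) CPM in Eomes-free cells (0.49). The groups do not overlap for any of these 3, which describes the values, since the share of all genes without overlap is not given here. Aurkb (0.38) and Aurka (0.31) passed as well, but in the knockout-labelled library alone their ratios were -0.01 and 0.02. The partner Nuf2 did not pass over all cells (0.00).

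The S phase list moved with this contrast: 40 of 46 measured genes were higher and 0 lower in Eomes-carrying cells, with a median of 0.72. Of the 62 measured genes of the mitotic list 12 were higher and 13 lower (median -0.01), and of 8 measured p53 targets 4 were higher and 1 lower. Of 33 cycle regulators 18 were higher and 3 lower. Among the higher were E2f1, an activator of S phase genes (1.48), Cdc25a, a phosphatase that activates Cdks (1.04), and Ccne1, the cyclin of S phase entry (1.01). The D-type cyclins went both ways, with Ccnd1 (-0.92) and Ccnd3 (-0.85) lower and Ccnd2 higher (0.43). Ccnd2 was at 1227 (KO) and 1159.5 (WT) CPM in Eomes-carrying against 969 (KO) and 845 (WT) CPM in Eomes-free cells. The part of these lists in the members' differences was not tested.

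Between the knockout-labelled and wild-type libraries none of the 36 members differed by 1.5-fold in either lineage. By that rule, which also asks for a counting interval without 0, 0 of 36 passed in the cortical dividing cells, where 2.1% of all genes did, and 0 of 36 in the eminence cells, where 1.69% did. In the cortical cells the log2 ratios (knockout-labelled over wild type) of the members ran from -0.23 to 0.28 with a median of 0.07, against -0.05 over all genes. In the eminence cells they ran from -0.21 to 0.30 with a median of 0.03, against -0.01. Counting intervals lay above 0 for 14 members and below for 4 in the cortical cells, where 7.72% of all genes lay above and 14.5% below. They lay above for 9 and below for 5 in the eminence cells, where these shares were 7.46% and 8.93%. The balance of these counts moved with the cells taken and the scaling. By share of mitotic list UMIs they were 9 above and 8 below, and with a median-of-ratios size factor 20 above and 1 below, in the cortical cells. Scaled by the mitotic list they were 3 above and 6 below in the eminence cells. Without doublet removal they were 5 above and 7 below in the cortical and 5 above and 10 below in the eminence cells. With at least 12 genes of the mitotic list they were 9 above and 6 below in the cortical and 20 above and 4 below in the eminence cells.

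**Figure D5:**
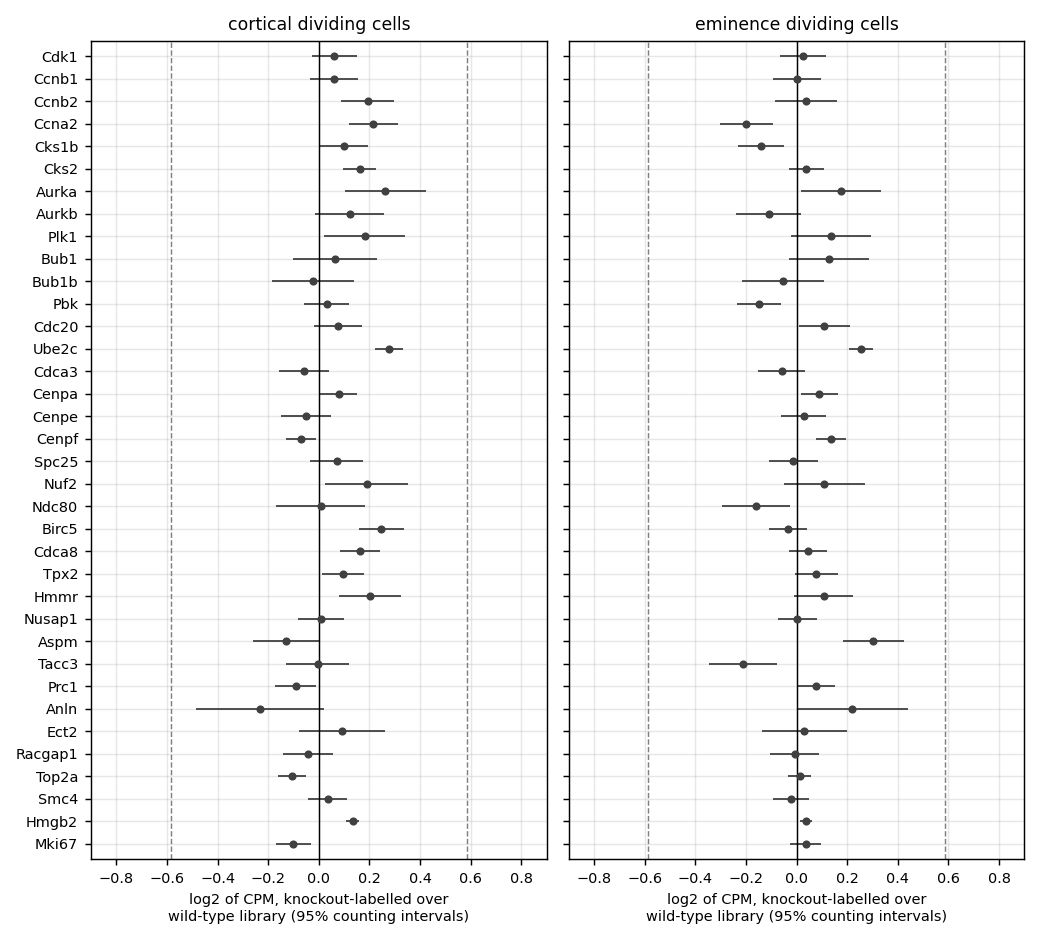
Log2 ratio of CPM (knockout-labelled over wild type) for each gene, in cortical (left) and eminence (right) dividing cells, with exact 95% counting intervals as bars and dashed lines at 1.5-fold. Every point lies between the dashed lines; Ube2c is above 0 in both lineages, at 0.28 and 0.25.

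Ube2c, whose values are given above, had ratios of 0.28 (0.22 to 0.33) in the cortical and 0.25 (0.21 to 0.30) in the eminence cells. Aurka was at 129 CPM in the knockout-labelled and 107 CPM in the wild-type library in cortical cells (0.26), and at 118 (KO) and 104 (WT) CPM in eminence cells (0.18). Birc5 had ratios of 0.25 in the cortical and -0.03 in the eminence cells. Hmmr was at 211 (KO) and 183 (WT) CPM in cortical (0.20) and 212 (KO) and 197 (WT) CPM in eminence cells (0.11). Ccna2 had ratios of 0.22 in the cortical and -0.20 in the eminence cells, which were 0.062 in the cortical cells without doublet removal and -0.04 in the eminence cells under the stricter lineage rule. Aspm was at -0.13 in the cortical and 0.30 in the eminence cells and Anln, the least counted member, at -0.23 (-0.49 to 0.02) and 0.22. Tacc3 was at -0.0050 in the cortical and -0.21 in the eminence cells.

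Among S-leaning cortical cells most members stood higher in the knockout-labelled library. There 33 of 36 ratios were above 0 and 23 intervals lay above 0 and 0 below, where 8.36% and 11.4% of all genes did, with a median of 0.31 against -0.02 over all genes. Aurka (41.0 CPM in the knockout-labelled and 23.7 CPM in the wild-type library, 0.79) and Hmmr (53.8 CPM in the knockout-labelled and 32.4 CPM in the wild-type library, 0.73) passed 1.5-fold, where 6.85% of all genes did and 1.02% were higher. In S-leaning eminence cells 28 of 36 ratios were below 0, with a median of -0.13. There 0 member intervals lay above 0 and 14 below, where 5.42% of all genes were above and 6.33% below. In mitosis-leaning cortical cells (median -0.06) 5 member intervals lay above 0 and 10 below, where 5.39% of all genes were above and 12.2% below. In mitosis-leaning eminence cells (median -0.04) they were 5 above and 6 below, where 6.04% of all genes were above and 7.48% below. Eomes-carrying cells were 76.4% of the S-leaning cortical cells in the knockout-labelled and 60.9% in the wild-type library. The part of this difference in the ratios was not tested.

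The share of cortical dividing cells was lower and that of eminence dividing cells higher in the knockout-labelled library. Cortical dividing cells were 2.32% of cells (2.05 to 2.61) in the knockout-labelled and 3.75% (3.35 to 4.18) in the wild-type library, a ratio of 0.617 (0.523 to 0.729). Eminence dividing cells were 4.87% (4.49 to 5.28) in the knockout-labelled and 3.89% (3.49 to 4.33) in the wild-type library, a ratio of 1.252 (1.09 to 1.44). After thinning every cell to 5000 UMIs, which leaves 69.3% of knockout-labelled and 75.8% of wild-type cells, the ratios were 0.709 in the cortical and 1.27 in the eminence cells. More dividing cells were left out as doublets in the knockout-labelled library, 28.4% (KO) and 19.0% (WT) of the cortical and 21.9% (KO) and 14.4% (WT) of the eminence dividing cells. Without doublet removal the ratios were 0.676 in the cortical and 1.33 in the eminence cells. The make-up of all kept cells differed between the libraries too. Cells with excitatory neuron markers were 6380 of 11533 knockout-labelled and 5045 of 8426 wild-type cells. Those with GABAergic neuron markers were 2937 (KO) and 1811 (WT) of the same totals. The part of this in the shares of dividing cells was not tested.

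Markers of other cells moved with the label in the dividing cells. The summed level of 10 microglial markers was 112 CPM in knockout-labelled and 3.05 CPM in wild-type eminence dividing cells, with 10 of 10 higher, and 19.0 (KO) and 3.79 (WT) CPM in the cortical cells, with 7 of 10 higher. Trem2 and Mrc1 were at 0 in the knockout-labelled cortical cells, and Trem2 and Aif1 at 0 in the wild-type eminence cells. The summed level of 5 red cell genes was 32.1 (KO) and 59.3 (WT) CPM in the cortical and 44.0 (KO) and 57.5 (WT) CPM in the eminence cells, with Alas2 at 0 in all but the wild-type cortical cells. Genes of the oligodendrocyte lineage summed to 180.5 (KO) and 76.2 (WT) CPM in the cortical and 85.6 (KO) and 114 (WT) CPM in the eminence cells. Median depth and the Cyfip2 level, given above, moved with the label as well. Their part in the differences between the libraries was not tested.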

How the data were processed

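The authors deposited, for each library, a matrix of whole UMI counts with every barcode in it. Per the file headers it came from Cell Ranger 4, and per the submitters' processing notes the genome was mm10. The gene annotation used for counting is not given in the sources used here. The members and gene lists were chosen with earlier results of these data known.

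Barcodes with 1000 or more UMIs, 500 or more detected genes and no more than 10% mitochondrial UMIs were taken as cells, giving 12855 knockout-labelled and 9086 wild-type cells. Scrublet (scanpy 1.11.5) scored doublets within each library, and the highest scores were left out at 0.8% per 1000 called cells, 1322 (10.3%) in the knockout-labelled and 660 (7.26%) in the wild-type library. The automatic threshold would have left out 529 knockout-labelled (4.12%) and 231 wild-type cells (2.54%). No clusters were made: cells were placed by marker genes and by the number of detected genes of a list. Dividing cells outside both lineages (22 knockout-labelled and 15 wild-type cells with both marker sets, 100 knockout-labelled and 91 wild-type cells with neither) entered no comparison.

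UMIs were summed per library and lineage. A gene was tested with at least 20 CPM in a sum and 100 UMIs in all. edgeR 4.0.16 (R 4.3.3) fitted the quasi-likelihood model with TMM scaling and the library as a block, and p-values were adjusted by Benjamini-Hochberg over all genes tested, with a threshold of 0.05. The library is the pool from which both lineages come, which is where the block comes from. With 4 sums a correlation between pairs could not be checked further. DESeq2 1.42.0 was an alternative. Log2 ratios of single libraries are of CPM without TMM, with exact conditional Poisson intervals. Shares have exact Clopper-Pearson intervals. On simulated counts for cortical over eminence (7224 genes, 50 changed at each size) the test called 78% of genes changed 1.5-fold and 98% of those changed 2-fold in the right direction, with 6 false calls in all. The simulation took its spread from the same sums, changed few genes and gave both libraries the same ratio. In the data 44.3% of genes passed, so the 6 false calls do not measure the error rate there.

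All 36 members may be named. Values in every library are given for the 10 with the most UMIs in dividing cells, for those past the test between lineages, and for the 6 with the largest ratio between libraries in each lineage. Of other lists, up to 4 passing genes in each direction are named. Promoter sequences are from RefSeq.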

Additional observations from a re-analysis of the deposited data

Results flagged for a closer look

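Ratios between the libraries pointed in opposite directions in the lineages for 4 members and for the share of dividing cells, each with counting intervals on opposite sides of no change. These differences were not tested, since each label has 1 library. As log2 ratios, knockout-labelled over wild type, Ccna2 had 0.215 in the cortical and -0.198 in the eminence dividing cells. Cks1b had 0.0988 in the cortical and -0.14 in the eminence cells. Cenpf had -0.0719 in the cortical and 0.137 in the eminence cells, and Prc1, the bundler of the central spindle, -0.0921 in the cortical and 0.0786 in the eminence cells. The pairs were not steady. Ccna2 was at 0.062 in the cortical cells without doublet removal and at -0.04 in the eminence cells under the strict lineage rule, and Cks1b at -0.03 in the cortical cells without doublet removal. Within S-leaning cells Cenpf was at 0.11 in the cortical and -0.03 in the eminence cells and Prc1 at 0.36 in the cortical and -0.22 in the eminence cells, each turned round. Dividing cells as a share of all cells had ratios of 0.617 in the cortical and 1.252 in the eminence lineage. Median depths of the dividing cells, and the microglial and red cell markers given in the report, differ between the libraries too, and their part was not tested.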

How the results depend on the processing

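For the counts between cortical and eminence cells (5 members higher, 10 lower), members higher numbered 1 with a cut of at least 5 mitotic list genes, 9 with cells chosen by their share of mitotic list UMIs, 18 under the strict lineage rule, 1 with DESeq2, 3 without the filter on low counts, 9 with scaling by the mitotic list, 3 with S phase cells added, and 1 each within mitosis-leaning and S-leaning cells. Members lower numbered 23 with at least 5 genes, 4 with at least 12 genes, 3 by share of UMIs, 2 under the strict rule, 6 with DESeq2, 5 with scaling by library size only and 3 with scaling by the mitotic list. Of all genes 44.3% passed as reported, 48.8% with at least 5 genes, 40.9% with at least 12 genes and 47.9% by share of UMIs. The share was 34.3% under the strict rule, 17.3% with DESeq2, 23.1% without the filter and 43.5% with library size only. It was 48.3% scaled by the mitotic list, 43.8% with S phase cells, 42.7% within mitosis-leaning and 20.6% within S-leaning cells. From 49.1% to 56.6% of these passing genes were higher, except with the scalings given below. Without the replicate block the counts were 5 and 8: Ube2c (adjusted p = 0.077) and Aspm (adjusted p = 0.0951) no longer passed in edgeR, and no other member's call changed. No paired analysis was possible because each genotype has 1 library where the libraries themselves were compared. Under the strict rule the log2 ratio reversed for Ube2c (0.19), Cenpe (0.11), Spc25 (0.0096), Nusap1 (0.032), Aspm (0.21) and Mki67 (0.0058). It also reversed for Ube2c within S-leaning cells (0.22), for Aspm without the knockout-labelled library (leaving out each library in turn gave -0.34 to 0.090), and for Aspm in Eomes-carrying over Eomes-free S-leaning cells (0.34). The cause was not tested. Between Eomes-carrying and Eomes-free cells 9 members were higher and 17 lower, against 14 and 2 within mitosis-leaning cells and 0 lower within S-leaning cells. Between the libraries (knockout-labelled over wild type) the log2 ratio reversed for Cks1b in cortical cells without doublet removal (-0.034). It reversed within S-leaning cells for Cenpf (0.11) and Prc1 (0.36) in cortical cells, and for Cenpf (-0.030), Prc1 (-0.22), Aspm (-0.24), Anln (-0.41) and Aurka (-0.47) in eminence cells. Over the settings run, members with a counting interval above 0 numbered 5 to 23 and below 0 numbered 0 to 10 in cortical cells, against 14 and 4 as reported, and in eminence cells 0 to 20 and 0 to 14, against 9 and 5. Between the libraries 2 members passed 1.5-fold within S-leaning cortical cells, against 0 over all. Scaling by library size only moved the median of all genes by 0.07 and scaling by the mitotic list by 0.16, and the share of passing genes that were higher was 49.1% as reported, 61.9% and 75.4%. DESeq2 passed 1250 genes of all, against 3201. Leaving out 1 library leaves no residual degree of freedom, so only the ratios of the other library are given. Anln, with 216 to 447 UMIs in a sum, is the least precise member.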
